A study of Mus musculus with 4 samples.

Results

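The 10 genes described here, Arg1, Nos2, Mrc1, Cd163, Retnla, Chil3, Trem2, Gpnmb, Folr2 and Timd4, are commonly read as marks of the state of a macrophage. They were chosen by symbol, all 10 were found among the 33696 genes counted, and their unique molecular identifiers (UMIs, each standing for 1 captured RNA molecule) were followed over the myeloid cells of 4 single-cell RNA sequencing libraries of the mouse digit tip. The cells came from samples labelled P3 digit (P3 being the last bone of the toe) of female C57BL/6 mice of 6 to 8 weeks whose hind limb digit tips had been amputated, and the digits of 10 mice were pooled for each library. For dissociation the digits were taken off through P2, the bone before the last, so tissue of that segment was included. For the diet libraries described next, the time after amputation is given in different ways in the sources. No such time is used here for any library. The SAR131675 library came from mice given the VEGFR3 inhibitor SAR131675 in the chow at 30 mg/kg, with 8 days of diet in the labels, and the control diet library from mice given the same chow without it. The LNR library came from limbs whose inguinal and popliteal lymph nodes had been removed by surgery, and the sham library from the opposite limbs, which the labels list as not treated. Each library carries its own batch label, from 1 to 4, so batch and condition cannot be told apart, and with 1 library per condition no difference between conditions has a replicate check or a test.

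Macrophages stimulated with IL-4 or IL-13 signal through STAT6 and are known for switching on Arg1, Mrc1, Retnla and Chil3, whereas interferon gamma and bacterial products switch on Nos2. Arginase 1 and inducible nitric oxide synthase compete for the same substrate, arginine. Resident tissue macrophages near vessels are known for Mrc1, Cd163, Folr2, Timd4 and Lyve1, and macrophages that take up lipid and dying cells for Trem2 and Gpnmb. In the digit tip, macrophages and the bone-resorbing osteoclasts clear tissue and bone after amputation, and VEGFR3 is needed for lymphatic vessels to grow.

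Barcodes with 200 to 5500 genes, at most 30000 UMIs and at most 10% mitochondrial UMIs were kept, and each pair of libraries was clustered on its own without the 10 genes. Myeloid classes held 1337 of 29076 kept cells in SAR131675, 974 of 24030 in control diet, 1504 of 19827 in LNR and 1383 of 20669 in sham, with medians of 7123, 7108, 3212 and 3023 UMIs per myeloid cell in that order. The macrophage markers C1qa, C1qb, C1qc, Adgre1, Csf1r, Ms4a7 and Fcgr1 were detected in each of 3 clusters, told apart here by leading genes and called the 3 C1q clusters after markers they share. A Lyve1 cluster, macrophage-like with resident genes, held 569, 481, 607 and 557 cells, a Vsig4 macrophage-like cluster held 83, 67, 128 and 109, and a Lyz1 Ccr2 cluster held 106, 77, 103 and 94. The last met the naming rule in the LNR pair only and is left without a cell type name, since antigen presentation and monocyte genes stood among its leading genes in both pairs (Lyz1, H2-Aa, H2-Eb1, Cd74 and Ccr2, beside C1qb), and its values are given apart. Lyve1 itself was highest in the Vsig4 cluster in both pairs, so the names Lyve1 and Vsig4 do not set cells with Lyve1 against cells without it. A monocyte-like cluster, led by Plac8, Il1b and Mmp12, was found in the LNR pair (140 and 85 cells). The diet pair had in its place a cluster of 69 and 38 cells that carried all 7 monocyte markers but was led by the neutrophil granule genes Camp, Ngp, S100a8, S100a9, Lcn2 and Ltf, with Ly6c2. It is called the Camp Ly6c2 cluster, has no cell type name and is not set against the monocyte-like cluster. Shared barcodes were few, 210 between SAR131675 and control diet and 101 between LNR and sham.

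Retnla and Chil3 have close relatives in the resistin-like and chitinase-like families, and upstream sequences of these genes are shown first. Retnla (RELM alpha) and Retnlg (RELM gamma) start 29999 bases apart on chromosome 16, and the 250 bases before each start, from RefSeq on GRCm38.p6, are printed 5′ to 3′ with TTC and GAA 4 bases apart, the spacing that STAT6 is known to bind, in capitals. The interval upstream of Retnla is chr16:48842359-48842608 and that of Retnlg chr16:48872358-48872607, both on the plus strand.
Retnla: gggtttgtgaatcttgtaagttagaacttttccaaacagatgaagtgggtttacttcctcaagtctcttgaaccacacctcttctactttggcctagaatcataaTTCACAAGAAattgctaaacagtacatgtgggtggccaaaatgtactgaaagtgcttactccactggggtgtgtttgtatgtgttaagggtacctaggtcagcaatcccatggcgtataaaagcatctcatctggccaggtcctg
Retnlg: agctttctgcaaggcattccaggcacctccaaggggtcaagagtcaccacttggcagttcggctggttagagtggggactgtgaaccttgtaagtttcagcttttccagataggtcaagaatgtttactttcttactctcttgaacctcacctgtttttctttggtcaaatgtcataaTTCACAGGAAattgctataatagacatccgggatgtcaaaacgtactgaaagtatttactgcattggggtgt
The capitals begin 145 bases before the start of Retnla and 72 before that of Retnlg, and this motif lies in 1923 of 32851 RefSeq promoter windows (5.85%, the motif being its own reverse complement). Chil3 (Ym1) and its neighbour Chil4 (Ym2) on the minus strand of chromosome 3 are printed the same way, with the shorter motif TTCNNNGAA in capitals, which 2306 windows (7.02%) hold. The intervals are chr3:106167565-106167814 for Chil3 and chr3:106219480-106219729 for Chil4.
Chil3: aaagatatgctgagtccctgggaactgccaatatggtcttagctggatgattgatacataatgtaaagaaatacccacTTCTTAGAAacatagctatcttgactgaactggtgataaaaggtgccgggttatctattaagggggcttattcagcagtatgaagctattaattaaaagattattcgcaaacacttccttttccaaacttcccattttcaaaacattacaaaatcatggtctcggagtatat
Chil4: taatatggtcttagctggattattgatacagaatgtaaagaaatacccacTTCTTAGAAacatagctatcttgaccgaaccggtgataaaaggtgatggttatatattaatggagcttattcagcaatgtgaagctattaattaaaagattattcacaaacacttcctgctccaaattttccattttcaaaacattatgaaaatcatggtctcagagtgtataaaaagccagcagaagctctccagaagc
Of the 10 genes, 8 had a window in that table, and among those 8 the longer spacing was found before Retnla and the shorter before Chil3. A match is a description of letters and not of binding. In the libraries, Retnla lay mainly in clusters with macrophage markers and had 0 UMIs in neutrophil-like cells, where Retnlg was high. Retnlg was one of the markers that named the neutrophil-like clusters and was not left out of the clustering. Its high level there was therefore built in and is not a result. In the neutrophil-like cluster Retnlg reached a CPM (the UMIs of a gene for each 1000000 UMIs summed over a class in a library) of 1103, 1545, 4574 and 3935 in SAR131675, control diet, LNR and sham, and 11517 and 7453 in a second, Ngp-rich neutrophil-like cluster of LNR and sham. Chil4 had 0 UMIs in the myeloid cells of all 4 libraries while Chil3 had 283, 245, 523 and 623, and reads that fit both copies may have been counted for neither.

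Mrc1 (ENSMUSG00000026712), the mannose receptor CD206, was the endocytic receptor that marked the Lyve1 cluster. Its level there was 3395 CPM (95% interval 3338 to 3452) in SAR131675, 3553 (3489 to 3618) in control diet, 2542 (2472 to 2614) in LNR and 2666 (2589 to 2745) in sham. It was counted in 98.8%, 96.9%, 96.2% and 97.3% of the cells of that cluster. The Lyz1 Ccr2 cluster had lower levels of 1507, 1519, 1850 and 1737 CPM, and the Vsig4 cluster had 695, 852, 752 and 789 CPM. Dendritic-like cells carried Mrc1 too, at 796, 725, 323 and 305 CPM, so that in the diet pair they stood beside the Vsig4 cluster and in the LNR pair below it. Keratinocyte-like cells, which should lack the gene and are deeper (median 12667 UMIs in SAR131675), had Mrc1 in 0.544%, 0.461%, 0.886% and 0.603% of cells. These intervals, and all others given here, are exact Poisson or binomial ones that cover counting error only, and they are too narrow for genes whose UMIs sit in few cells.

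Cd163 (ENSMUSG00000008845), the haemoglobin-haptoglobin scavenger receptor, had its highest level in the same cluster as Mrc1 in every library. In Lyve1 macrophage-like cells it stood at 877 (849 to 907), 890 (858 to 923), 886 (845 to 929) and 1008 (961 to 1057) CPM in SAR131675, control diet, LNR and sham. The Lyz1 Ccr2 cluster differed between the pairs, with 330 and 395 CPM in the diet pair and 728 and 784 in the LNR pair. The pairs were clustered separately and differ in depth and in the Cell Ranger version of their headers, so these levels are only set side by side. Vsig4 macrophage-like cells had 95.5 to 149 CPM, and the Camp Ly6c2 and monocyte-like clusters at most 3.92. Cd163 was not confined to the C1q clusters. In the clustering of all kept cells, a cluster led by the antigen presentation genes Cd74, H2-Aa and H2-Ab1 had 153 CPM in SAR131675 and 135 in control diet. Its counterpart in the LNR pair had 265 CPM in LNR and 370 in sham. Both are broader than the dendritic-like class.

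Folr2 (ENSMUSG00000032725), the folate receptor beta, and Timd4 (ENSMUSG00000055546), a receptor for phosphatidylserine on dying cells, were carried by both the Lyve1 and the Vsig4 cluster. Folr2 stood at 842 (814 to 870), 819 (788 to 850), 1162 (1115 to 1211) and 1175 (1124 to 1228) CPM in the Lyve1 cluster and at 1134 (1057 to 1215), 932 (858 to 1010), 1111 (1032 to 1193) and 1174 (1080 to 1274) in the Vsig4 cluster. The intervals of the 2 clusters overlapped in LNR and in sham but not in the diet pair, where the Vsig4 cluster was higher. The Lyz1 Ccr2 cluster had less, at 162 (134 to 195), 149 (117 to 187), 508 (432 to 594) and 466 (389 to 554) CPM. Folr2 was at 0 in the Camp Ly6c2 cluster, at 4.33 and 0 CPM in monocyte-like cells and at 0 to 1.62 CPM in dendritic-like cells. Timd4 stood at 101, 104, 96.4 and 98.2 CPM in the Lyve1 cluster and at 111, 162, 98.2 and 83.4 in the Vsig4 cluster, and no Timd4 UMI was counted in the Camp Ly6c2 or the monocyte-like cluster. Dendritic-like cells of the diet pair carried 63.2 and 108 CPM of Timd4, in 9.95% and 15.6% of cells, and the 5 cells with most Timd4 UMIs in each diet library were all dendritic-like. In the LNR pair that class had 14.4 and 17.7 CPM.

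Trem2 (ENSMUSG00000023992), a lipid-sensing receptor that signals through Tyrobp, led in the Vsig4 cluster. It stood there at 999 (927 to 1075), 1034 (956 to 1116), 1067 (991 to 1148) and 1219 (1123 to 1320) CPM and was counted in 98.8%, 100%, 96.1% and 94.5% of cells. The Lyve1 cluster had 265, 273, 336 and 312 CPM. Mrc1 and Trem2 therefore ordered these clusters in opposite ways, in all 4 libraries.

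**Figure D1:**
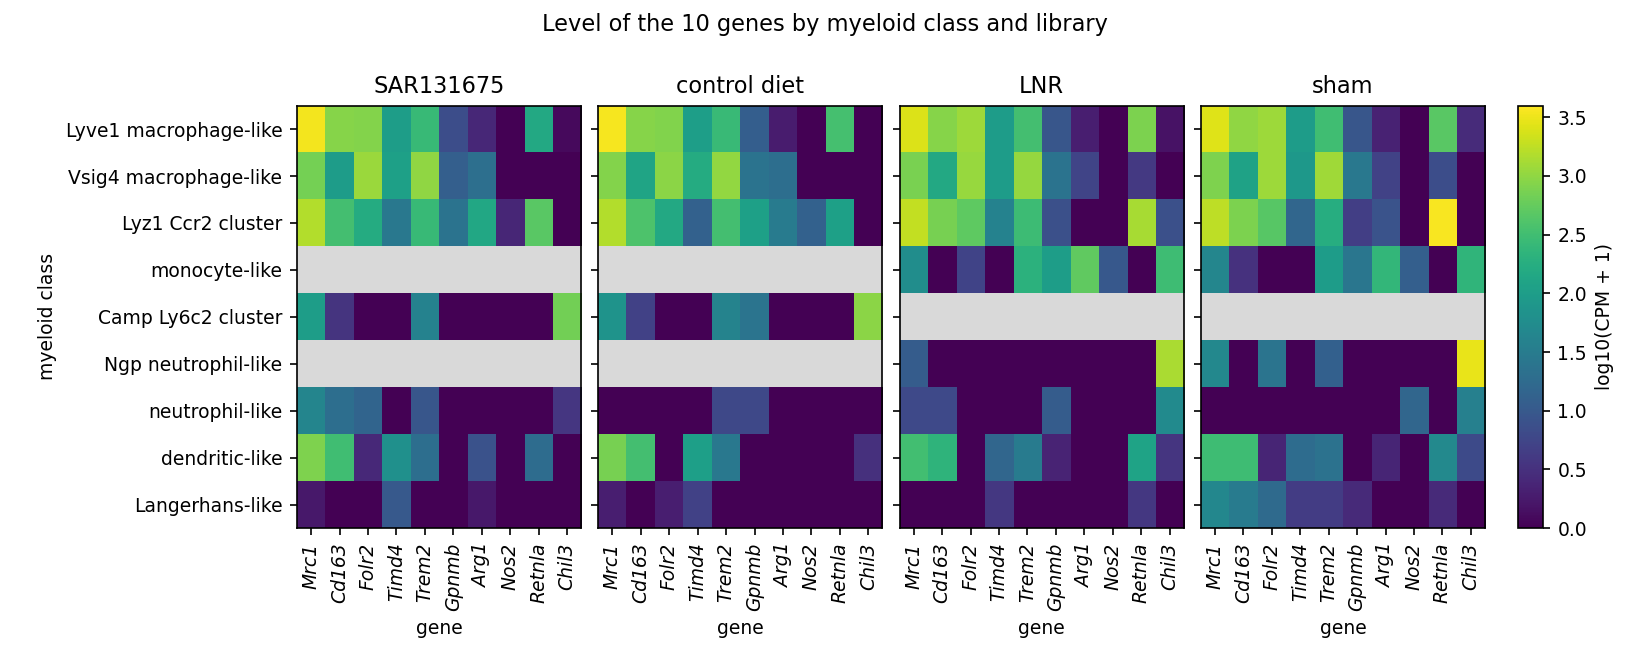
Heat map of log10(CPM + 1) of the 10 genes (columns) in 9 myeloid classes (rows), with 1 panel for each library and grey where a class was absent from that pair. Mrc1 is highest in the Lyve1 row and Trem2 in the Vsig4 row of every panel, Chil3 lies in the Camp Ly6c2, monocyte-like and Ngp-rich neutrophil-like rows, and Arg1 is high in the monocyte-like row, which only the LNR and sham panels have.

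Gpnmb (ENSMUSG00000029816), a membrane glycoprotein of lysosome-rich cells, pigment cells and osteoclasts, was low in the Lyve1 cluster. The Lyve1 cluster had 6.19 (4.01 to 9.14), 10.9 (7.63 to 15.1), 8.2 (4.69 to 13.3) and 8.28 (4.53 to 13.9) CPM. Fibroblast-like cells stood above it in every library, at 102, 133, 142 and 121 CPM, and held 54.5%, 53.1%, 66.7% and 62.7% of all Gpnmb UMIs. Myeloid cells held 0.763%, 1.67%, 2.17% and 1.07%. The highest Gpnmb levels were in the few cells carrying melanocyte markers, at 977, 2391, 713 and 655 CPM over 6, 12, 17 and 19 cells. Most Gpnmb UMIs thus lay outside the myeloid classes, a share that also follows how many cells of each class were captured. Single myeloid clusters came nearer to fibroblast-like cells. The Lyz1 Ccr2 cluster of control diet had 112 CPM and the monocyte-like cluster of LNR 101 CPM (78.8 to 128). Both were below the fibroblast-like level of their own library, and the other library of each pair was lower in that cluster. Of the 113 myeloid Gpnmb UMIs of control diet, 76 were in 5 cells. Of these 5, 3 were in the Lyz1 Ccr2 cluster and 1 had osteoclast markers. Finer clustering put all 70 Gpnmb UMIs of the monocyte-like cluster of LNR into the cluster led by Mmp12, Clec4n and Spp1. It stood there at 167 CPM (130 to 211), above the 142 CPM of fibroblast-like cells of LNR.

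Arg1 (ENSMUSG00000019987), arginase 1, was counted mostly outside the 3 C1q clusters. The 3 C1q clusters together had 22.2, 6.78, 1.71 and 2.44 CPM of Arg1, from 121, 30, 5 and 6 UMIs. Without the cells that had osteoclast markers, SAR131675 and control diet had 21 and 30 UMIs, or 3.86 and 6.81 CPM, so that the order of this pair turned. The Lyz1 Ccr2 cluster held 101 and 15 of the UMIs of that pair, and the clusters named macrophage-like had 1.49 and 0.908 CPM (Lyve1) and 19.7 and 19.1 CPM (Vsig4). In the LNR pair it lay in the monocyte-like cluster, at 524 CPM (471 to 581, 363 UMIs) in LNR and 241 CPM (198 to 291, 108 UMIs) in sham, in 22.9% (16.2 to 30.7) and 12.9% (6.64 to 22.0) of its cells. The Camp Ly6c2 cluster of the diet pair had 0 Arg1 UMIs, which the counts bound at 9.01 CPM in SAR131675 and 14.5 CPM in control diet. Finer clustering put all 363 and 108 UMIs into an unnamed cluster of 74 and 35 cells led by Mmp12, Clec4n and Spp1, at 868 and 466 CPM, and left the monocyte-like cells with 0. Keratinocyte-like cells held 66.4%, 78.2%, 23.1% and 48.7% of all Arg1 UMIs and myeloid cells 6.53% (5.51 to 7.69), 1.56% (1.05 to 2.21), 50% (46.3 to 53.7) and 28.1% (23.8 to 32.7).

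Nos2 (ENSMUSG00000020826), inducible nitric oxide synthase, was almost absent from myeloid cells, with 1, 6, 6 and 10 UMIs in SAR131675, control diet, LNR and sham. No Nos2 UMI was counted in the Lyve1 or the Vsig4 cluster of any library, which bounds the level in Lyve1 cells at 0.913, 1.12, 1.89 and 2.18 CPM. Over all kept cells the 122, 152, 66 and 78 Nos2 UMIs lay largely in endothelial-like cells (48.4%, 33.6%, 16.7% and 19.2%) and in clusters without a name (45.9%, 55.3%, 47.0% and 37.2%), and in LNR and sham also in osteoblast-like cells (13.6% and 26.9%). No ratio of Arg1 to Nos2 in macrophages was taken from these counts.

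**Figure D2:**
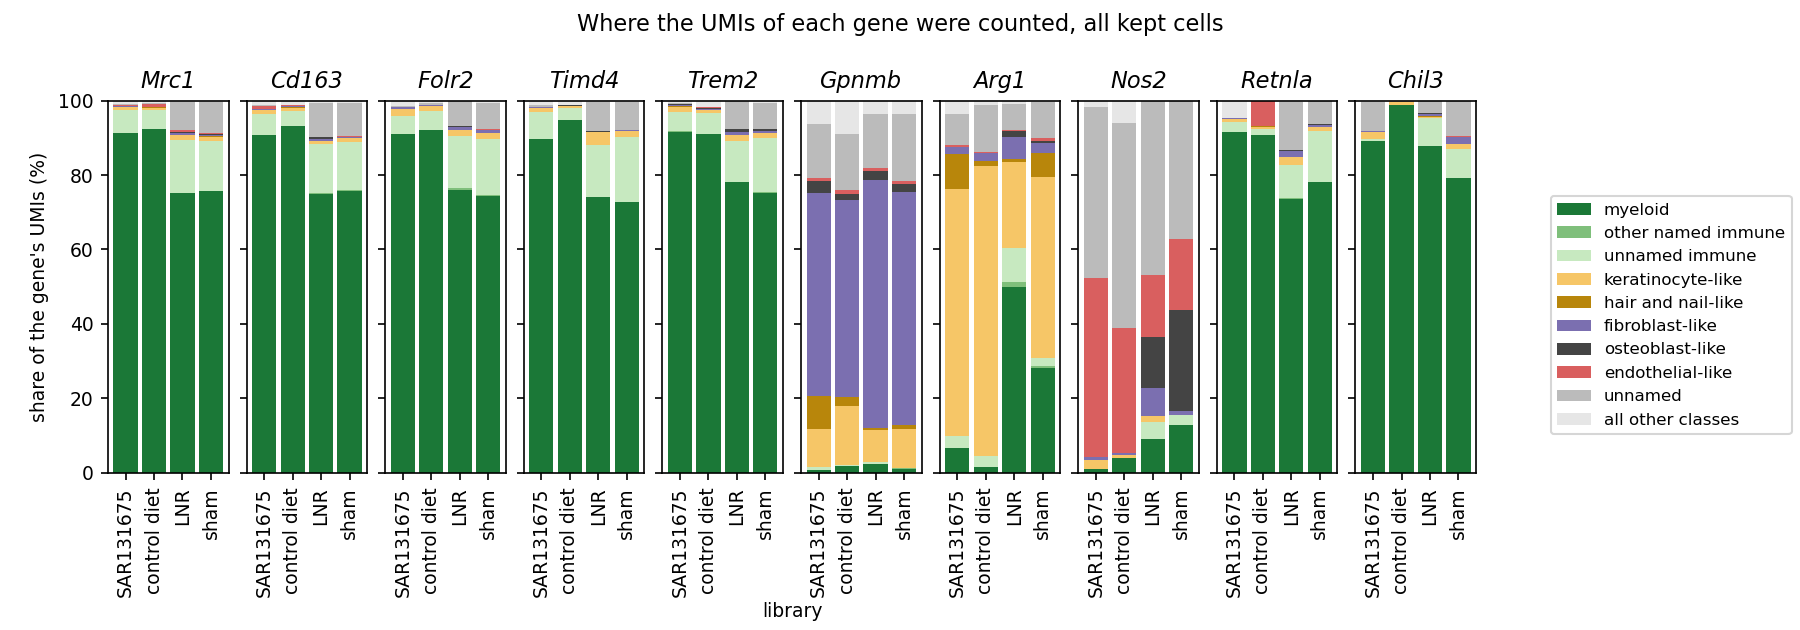
Stacked bars of the share of the UMIs of each gene (percent, over all kept cells) held by each group of cells, with 1 panel for each gene and 1 bar for each library. Mrc1, Cd163, Folr2, Timd4, Trem2, Retnla and Chil3 lie mainly in myeloid cells, Gpnmb mainly in fibroblast-like cells, Arg1 largely in keratinocyte-like cells except in LNR, and Nos2 in endothelial-like and unnamed cells, in LNR and sham also in osteoblast-like cells.

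Myeloid cells held most UMIs of the other 7 genes. For Mrc1 the share was 91.4% (91.0 to 91.8), 92.4% (92.0 to 92.8), 75.1% (74.2 to 76) and 75.7% (74.7 to 76.7), for Cd163 90.8%, 93.3%, 75.0% and 75.7%, and for Trem2 91.7%, 90.9%, 78.1% and 75.3%. The lower shares of LNR and sham went with clusters that mix macrophage leading genes (Pf4, C1qa) with keratinocyte markers and were left without a name.

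Retnla (ENSMUSG00000061100), a secreted protein and a textbook product of IL-4 stimulated macrophages, was carried by a minority of the cells of the C1q clusters. It was counted in 7.92% (6.1 to 10.1), 11.5% (9.12 to 14.3), 14.9% (12.6 to 17.5) and 13.9% (11.6 to 16.6) of the cells of the 3 C1q clusters. The Lyve1 cluster had 148 (136 to 160), 340 (320 to 360), 783 (745 to 824) and 478 (445 to 512) CPM, and the Lyz1 Ccr2 cluster 469 (420 to 522), 110 (82.6 to 143), 1329 (1204 to 1464) and 3659 (3437 to 3891). The order of the clusters thus differed between libraries, with the Lyve1 cluster above the Lyz1 Ccr2 cluster in control diet alone. That order rested on few cells: without the 5 top cells of each cluster the Lyve1 cluster had 74.3, 110, 497 and 313 CPM and the Lyz1 Ccr2 cluster 10.5, 13, 407 and 1516, so that the Lyve1 cluster was above it in all libraries but sham. The Vsig4 cluster had 0, 0, 2.98 and 6.1 CPM, and the Camp Ly6c2, monocyte-like and neutrophil-like clusters had no Retnla UMI.

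Chil3 (ENSMUSG00000040809), a secreted chitinase-like lectin, was close to absent from the C1q clusters. The 3 C1q clusters together had 0.183, 0, 1.02 and 1.22 CPM. In the diet pair it lay in the Camp Ly6c2 cluster, at 686 (609 to 772) CPM in SAR131675 and 953 (837 to 1081) in control diet, in 30.4% and 36.8% of cells. In the LNR pair the monocyte-like cluster had 306 (266 to 350) and 223 (182 to 271) CPM, in 34.3% and 30.6% of cells, and the Ngp-rich neutrophil-like cluster had 1388 (1227 to 1563) in LNR and 3018 (2762 to 3291) in sham. The Camp Ly6c2 and the Ngp-rich clusters shared the leading genes Camp, Ngp, S100a8, S100a9, Lcn2, Ltf and Chil3 itself. The other neutrophil-like cluster had 2.69, 0, 51.5 and 35.8 CPM. Chil3 and Retnla, both listed as IL-4 products, shared no class of high level.

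**Figure D3:**
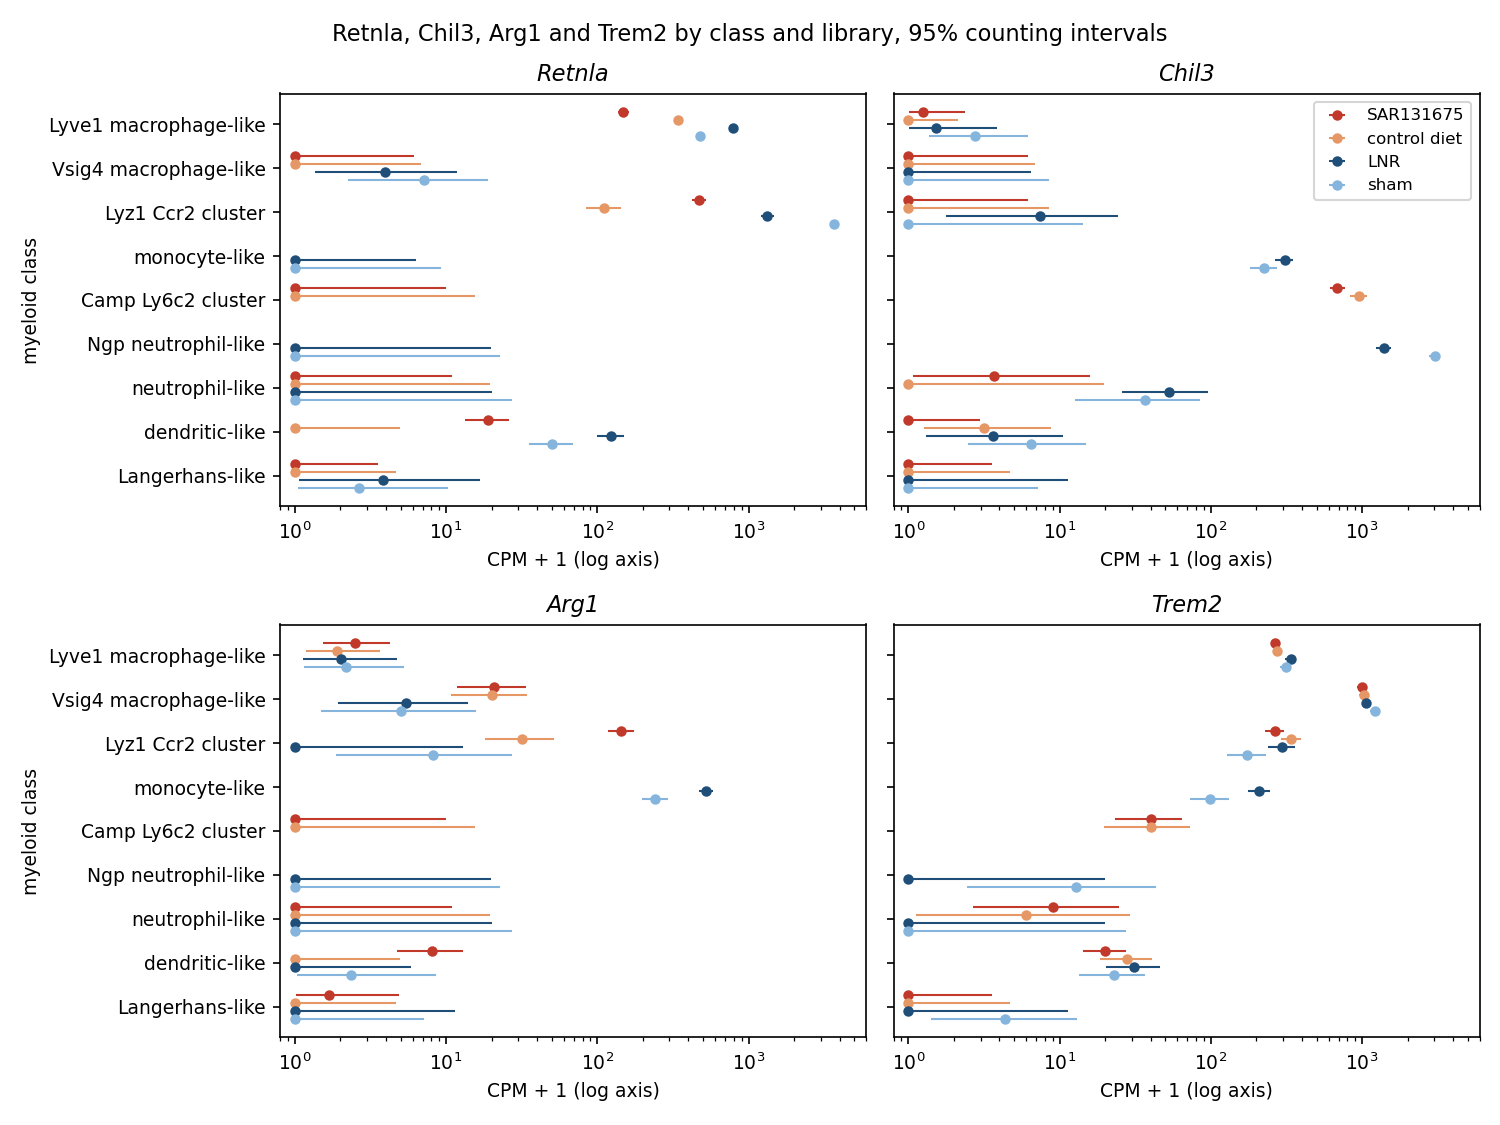
Levels of 4 of the genes by myeloid class and library, as CPM + 1 on a log axis, each point with its exact Poisson 95% interval (counting error only). The classes with high Retnla and those with high Chil3 do not overlap, and the Arg1 points of monocyte-like cells are at 524 and 241 CPM in LNR and sham.

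A sum over a class can rest on a few cells, so the share of the myeloid UMIs of each gene in its 5 top cells was taken. For Mrc1 it was 3.09%, 3.73%, 2.42% and 2.72%, for Folr2 3.49%, 3.49%, 3.36% and 3.52%, and for Cd163 and Trem2 4.35% to 6.49%. For Timd4 it was 11.2%, 12.4%, 7.89% and 8.66%. The Timd4 share of the diet pair lay in dendritic-like cells, whose 5 top cells held 71 of the 117 Timd4 UMIs of that class in SAR131675 and 70 of 100 in control diet.
The other genes with at least 20 UMIs were carried by fewer cells. The 5 top cells held 46.8%, 65.2%, 27.6% and 33.7% of Retnla, 80.2%, 89.8%, 40.9% and 41.4% of Chil3, 44.9%, 67.3%, 56.5% and 51.2% of Gpnmb, and 87.4%, 83.3%, 57.1% and 80.9% of Arg1. A single Lyve1 macrophage-like cell of the control diet library held 378 of the 1177 Retnla UMIs. A single cell of SAR131675, in the Lyz1 Ccr2 cluster but with osteoclast markers, held 100 of the 135 Arg1 UMIs, and the top Arg1 cell of LNR, with 65 UMIs, had osteoclast markers too. For Retnla the 5 top cells were all in the Lyz1 Ccr2 cluster in sham and all in the Lyve1 cluster in control diet, and for Chil3 they were all in the Camp Ly6c2 cluster in the diet pair and all Ngp-rich neutrophil-like in sham. All 5 top cells of Mrc1 were Lyve1 macrophage-like in every library.

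**Figure D4:**
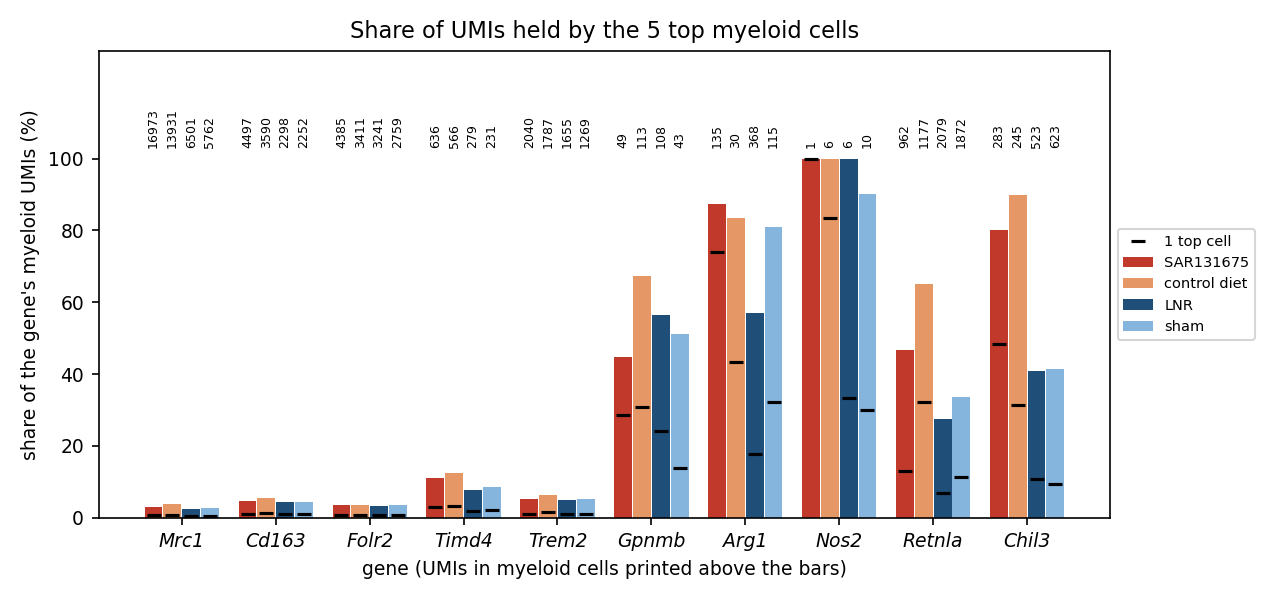
Share (percent) of the myeloid UMIs of each gene held by its 5 top cells (bars) and by its top cell (black dash), for each library, with the number of myeloid UMIs above each bar. Mrc1, Cd163, Folr2 and Trem2 stay below 6.5% in their 5 top cells, and Retnla, Chil3, Gpnmb and Arg1 pass 50% in at least 1 library, Arg1 in all 4. The Nos2 bars rest on 1 to 10 UMIs, and Nos2 was left out of these counts.

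To see how VEGFR3 inhibition bore on these genes, SAR131675 was set against control diet. Over all myeloid cells Retnla and Gpnmb were lower and Arg1 higher in SAR131675 by at least 1.5-fold, and the 6 other genes with at least 20 UMIs stayed inside that limit. Thus 1 of 9 genes was past the limit upward, where 6.19% of 13571 genes were, and 2 of 9 downward, where 5.37% of genes were. With each cell thinned to 1500 UMIs both downward calls were lost, as the log2 ratio of Retnla was -0.51 and that of Gpnmb -0.48. Retnla stood at 97.9 CPM in SAR131675 and 167 CPM in control diet (log2 ratio -0.77, 95% interval -0.90 to -0.65). Its direction was opposite in the clusters that carry it, with a log2 ratio of -1.20 (-1.35 to -1.06) in the Lyve1 and 2.09 (1.67 to 2.53) in the Lyz1 Ccr2 cluster. Leaving out the 5 top cells of each cluster gave -0.56 (-0.79 to -0.34) and, from 7 against 6 UMIs, -0.31 (-2.11 to 1.54), so the opposite direction rested on 5 cells a library. Without the 5 top cells of each library the log2 ratio over myeloid cells was -0.17 (-0.36 to 0.02), from 512 against 410 UMIs, so few cells decided it.
Arg1 stood at 13.7 and 4.26 CPM (log2 ratio 1.69, 1.11 to 2.31). With the 5 top cells left out, 17 and 5 UMIs remained, with a log2 ratio of 1.28 (-0.22 to 3.07). In the 3 C1q clusters it was 1.71 (1.12 to 2.34), and -0.82 (-1.70 to 0.03) without the cells that had osteoclast markers. Gpnmb stood at 4.99 and 16.1 CPM (-1.69, -2.20 to -1.19), from 49 and 113 UMIs, of which 55 of the control diet UMIs were in the Lyz1 Ccr2 cluster. Without the 5 top cells the Gpnmb log2 ratio was -0.94 (-1.71 to -0.19). Summed over 8 osteoclast markers, myeloid cells had 170 CPM in SAR131675 and 185 CPM in control diet. These sums leave out part of the osteoclast-type cells. Of the 5 and 3 kept cells with osteoclast markers in SAR131675 and control diet, 2 and 1 were in myeloid classes. An unnamed cluster of 25 and 16 cells, with Ctsk, Mmp9, Atp6v0d2 and Acp5 among its leading genes, lay outside those classes. Without the cells that had osteoclast markers, the Gpnmb log2 ratio in the 3 C1q clusters went from -1.40 to -0.85 (-1.41 to -0.30).
Chil3 was inside the limit, at a log2 ratio of -0.27 (-0.53 to -0.02), and its sign turned to 0.68 (-0.03 to 1.42) without the 5 top cells, from 56 against 25 UMIs. Those cells held 80.2% of its UMIs in SAR131675 and 89.8% in control diet. Leaving them out thus raises the ratio by itself and cannot check its direction.

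The receptors stood close together in the diet pair. The log2 ratios over myeloid cells were -0.20 for Mrc1, -0.16 for Cd163, -0.12 for Folr2, -0.29 for Trem2 and -0.31 for Timd4, against a median of -0.04 over all genes. In the 3 C1q clusters together 1 of 8 genes, Arg1, was past 1.5-fold upward (5.7% of 11976 genes) and 2 of 8, Retnla and Gpnmb, downward (5.38%). Within Lyve1 macrophage-like cells, 0 of 7 genes were past 1.5-fold upward (5.43% of 11305 genes) and 2 of 7, Retnla and Gpnmb, downward (5.94%). Gpnmb there went from -0.82 to -0.20 (-1.31 to 0.92) without its 5 top cells. Timd4 in dendritic-like cells was past the limit as well, at 63.2 and 108 CPM (log2 ratio -0.77, -1.17 to -0.37), and at -0.43 (-1.12 to 0.28) without the 5 top cells, from 46 against 30 UMIs. Dendritic-like cells made up 211 of the 1337 myeloid cells in SAR131675 and 109 of 974 in control diet, and Lyve1 macrophage-like cells 569 and 481, so ratios over all myeloid cells also carry the makeup of the class.

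**Figure D5:**
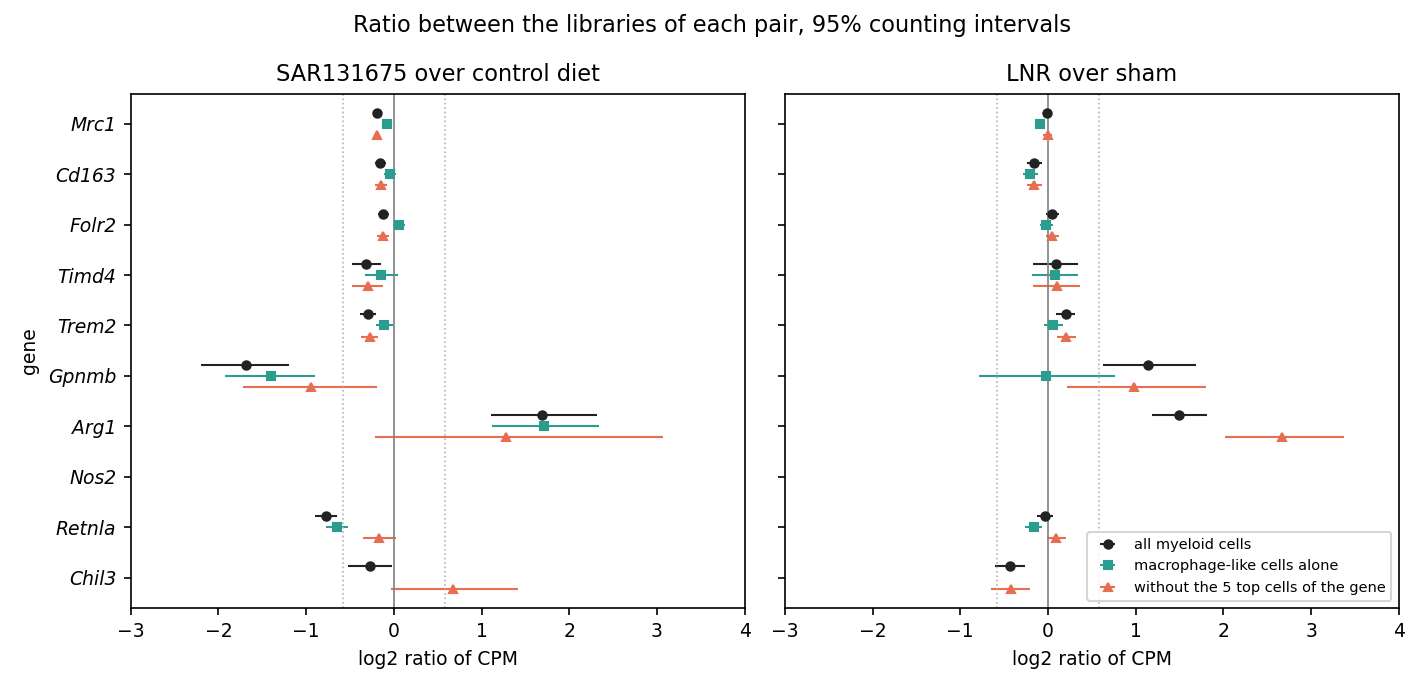
Log2 ratios of CPM in each pair (SAR131675 against control diet, LNR against sham) for the genes with at least 20 UMIs, over all myeloid cells (black), over the 3 C1q clusters alone (green, macrophage-like in the key) and over myeloid cells without the 5 top cells of the gene (orange), with exact conditional 95% intervals (counting error only) and dotted lines at 1.5-fold. Mrc1, Cd163, Folr2, Timd4 and Trem2 lie inside the dotted lines in both panels, Retnla is outside them in the left panel until its 5 top cells are left out (-0.17), and Arg1 is on the right in both panels with no green point for LNR over sham, where 5 and 6 UMIs were left.

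Removal of lymph nodes was examined in the same way against sham. Over all myeloid cells Arg1 and Gpnmb were higher in LNR by at least 1.5-fold, 2 of 9 genes where 5.25% of 11826 genes were, and 0 of 9 were lower, where 4.79% of genes were. Arg1 stood at 68.5 and 24.3 CPM (log2 ratio 1.5, 1.19 to 1.81), from 368 against 115 UMIs. Without the 5 top cells of each library it was 2.67 (2.02 to 3.38), from 158 against 22 UMIs. Those cells held 57.1% of the Arg1 UMIs in LNR and 80.9% in sham. Leaving them out thus raises the ratio by itself and cannot check its direction. Gpnmb stood at 20.1 and 9.08 CPM (1.15, 0.62 to 1.69), from 108 against 43 UMIs.
The monocyte-like cluster held 363 of the Arg1 UMIs of LNR and 108 of those of sham, and 70 and 11 of the Gpnmb UMIs. There the log2 ratios were 1.12 (0.81 to 1.44) for Arg1, 2.04 (1.11 to 3.11) for Gpnmb, 1.08 (0.59 to 1.60) for Trem2 and 0.46 (0.11 to 0.81) for Chil3. Finer clustering split it in different proportions, with the unnamed cluster led by Mmp12, Clec4n and Spp1 taking 74 cells in LNR and 35 in sham and all of the Arg1 and Gpnmb UMIs. Within that cluster Arg1 was at 868 and 466 CPM, Gpnmb at 167 and 47.5 and Trem2 at 316 and 147. In the 3 C1q clusters together 0 of 7 genes were past 1.5-fold upward, where 5.16% of 10061 genes were, and 0 of 7 downward, where 4.15% were (9.31% in either direction). The osteoclast markers, of which 5 of 8 were detected in LNR and 6 of 8 in sham, summed to 739 CPM in the monocyte-like cells of LNR and 1250 in those of sham. Over all myeloid cells, 1 cell of LNR and 5 cells of sham had osteoclast markers, of 4 and 10 such cells among all kept cells. Without the cells that had osteoclast markers the Arg1 log2 ratio in the monocyte-like cluster was 0.69 (0.36 to 1.02). The part of such cells in the Arg1 and Gpnmb values was not tested.

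Over all myeloid cells the level of Chil3 was 97.4 CPM after node removal and 132 in sham (log2 ratio -0.44, -0.61 to -0.27), inside the limit. In the Ngp-rich neutrophil-like cluster of 36 and 35 cells it was past it, at -1.12 (-1.34 to -0.91), while Retnlg in the same cells was at 0.63. Without the 5 top cells the Chil3 log2 ratio there was -2.12 (-2.52 to -1.74). Leaving them out cut the level more in LNR than in sham, which lowers the ratio by itself and cannot check its direction. Retnla was level over all myeloid cells (-0.03, -0.12 to 0.06), yet it was 0.71 (0.59 to 0.84) in the Lyve1 and -1.46 (-1.63 to -1.29) in the Lyz1 Ccr2 cluster. The equal sums thus held opposite differences in the clusters that carry the gene. Leaving out the 5 top cells of each cluster gave 0.67 (0.51 to 0.82) in the Lyve1 cluster. In the Lyz1 Ccr2 cluster it gave -1.90 (-2.21 to -1.60), as it cut the level more in LNR than in sham. There it lowers the ratio by itself and cannot check its direction. In the Lyve1 cluster 1 of 7 genes, Retnla, was past 1.5-fold upward and 0 downward, where 6.3% of 9251 genes were higher and 4.63% lower. Haemoglobin and other erythroid markers moved with these clusters: all 4 were detected in the Lyz1 Ccr2 cluster of LNR, where they summed to 7540 CPM against 105 CPM in sham (2 of 4 detected), and in the Lyve1 cluster they summed to 1540 and 316 CPM. Their part in the Retnla values was not tested.
The receptors again stood close together, with log2 ratios over myeloid cells of -0.01 for Mrc1, -0.15 for Cd163, 0.05 for Folr2, 0.20 for Trem2 and 0.09 for Timd4. The median over all genes was -0.00.

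Single cells showed which of the genes were counted together. Of the 140 monocyte-like cells of LNR, 32 had Arg1, and 65.6% of these had Trem2 against 24.1% of the rest, and 21.9% had Gpnmb against 5.56%. All 13 cells with Gpnmb had Trem2, against 26.8% of the others. The cells with Arg1 were also deeper (median 5333 UMIs against 3612), as were those with Gpnmb (7813 against 3658), and since finer clustering put every Arg1 and Gpnmb UMI of this class into 1 of its subclusters, these shares also set that subcluster against others. The part of depth and of subcluster makeup was not tested. In sham, 11 of 85 monocyte-like cells had Arg1, and 36.4% of these had Trem2 against 27.0% of the rest.
Within the C1q clusters, cells with Timd4 had Folr2 in 95.3%, 96.7%, 95.1% and 94.4% in SAR131675, control diet, LNR and sham, against 72.5%, 77.5%, 75.9% and 77.0% of cells without Timd4. They were deeper as well, with medians of 8711 against 6423 UMIs in SAR131675. Cells with Retnla had Trem2 in 45.0%, 62.5%, 36.8% and 35.8%, against 66.5%, 66.2%, 56.1% and 50.3% of the rest, among which the Vsig4 cluster had nearly no Retnla and Trem2 in almost every cell. Within the Lyve1 cluster alone these shares were 42.3%, 62.9%, 39.8% and 35.4% against 61.7%, 62.1%, 48.0% and 43.7%, so that in control diet the order was not kept. The part of cluster makeup and depth in these shares was not tested.
After each cell of these clusters was thinned to 1500 UMIs, which left out 68, 47, 135 and 119 shallower cells, Mrc1 was counted in 87.8%, 88.2%, 85.2% and 86.9% of cells and Retnla in 4.78%, 6.75%, 12.1% and 10.8%.

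The genes whose levels followed each member most closely were named by Pearson's r of log2(CPM + 10) over 30 points of myeloid class and library, among 5785 genes. The points share libraries and depths and r is a description. The classes were named by markers that were among the compared genes, which favours such markers. Mrc1 was followed by Dse (0.957), Abca9 (0.953) and Ephx1 (0.949), and Cd163 by Ephx1 (0.965), Dok2 (0.951) and Gm10134 (0.942). Folr2 was followed by Cbr2 (0.987), Stab1 (0.985) and Rnase4 (0.983), of which Cbr2 and Stab1, a scavenger receptor, are on the list of resident macrophage genes. Timd4 was followed by Fcna (0.922), Fgfr1 (0.908) and Nacc2 (0.903).
Trem2 was followed by Slc27a1, a fatty acid transporter (0.968), Tmem37 (0.964) and the complement receptor C3ar1 (0.956). Retnla was followed by the lectin Cd209f (0.903) and the chemokines Ccl8 (0.901) and Ccl12 (0.886), and Chil3 by the monocyte markers Ly6c2 (0.940), Ifitm6 (0.901) and Plac8 (0.849). Arg1 and Gpnmb shared their closest gene, Acp5, the tartrate-resistant acid phosphatase of osteoclasts (0.835 and 0.863). Both values rest on sums that few cells carry. In SAR131675, 1 cell with osteoclast markers held 100 of the 135 myeloid Arg1 UMIs. Nos2 had too few UMIs.

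Lists of genes around these members gave the setting. On a list of 16 genes of the IL-4 and IL-13 response, 5 were at least 1.5-fold higher and 0 lower in SAR131675 over myeloid cells (median log2 ratio 0.06 against -0.04 over all genes), where 6.19% of all genes were higher, and 4 of 16 were higher and 0 lower in LNR (median 0.06 against -0.00), where 5.25% were. In the 3 C1q clusters alone 3 of 13 genes of this list were higher and 0 lower in SAR131675, where 5.7% and 5.38% of all genes were (median -0.12 against -0.02). In LNR 1 of 12 was higher and 1 lower, where 5.16% and 4.15% were (median -0.13 against 0.00). The 5 in SAR131675, named after their values were seen, were Ccl22 (0.63), Socs2 (0.97), Pdcd1lg2 (1.04), Ear2 (0.61) and Ch25h (0.62, interval -0.06 to 1.34). The 4 in LNR were Ccl17 (0.68), Ccl22 (1.15), Socs2 (0.87) and Ch25h (2.25). The class with the highest level was dendritic-like for 6 of the 16 genes in each pair. The genes of that list with most UMIs stayed inside 1.5-fold in LNR and sham, among them the lectins Mgl2 (354 and 423 CPM) and Clec10a (178 and 168 CPM). In the diet pair Mgl2 stood at 650 and 553 CPM and the chemokine Ccl24 at 150 and 224 CPM.
Of 16 genes of the interferon gamma and LPS response, 14 had enough UMIs in each pair, and 1 was higher in SAR131675, Il6 (1.14), and 0 in LNR, against the same 6.19% and 5.25% of all genes higher. Within the C1q clusters 0 of 13 were higher and 2 lower in SAR131675 (5.7% and 5.38% of all genes, median -0.21), and 0 of 13 were higher and 1 lower in LNR (5.16% and 4.15%, median -0.03). Il1b, the cytokine with most UMIs on that list, stood at 1212, 896, 1643 and 1364 CPM over myeloid cells. It was highest in neutrophil-like cells, where 7 of the genes in the diet pair and 6 in the LNR pair had their highest level.
Of 16 lipid-associated genes, 0 were past the limit in SAR131675 and 1 was higher in LNR, the protease Ctsl (0.59). For this list and the next lists the shares of all genes over myeloid cells were 6.19% higher and 5.37% lower in SAR131675, and 5.25% and 4.79% in LNR, so 1 gene of 16 is near the background. Within the C1q clusters 1 lipid-associated gene of 16 was higher and 1 lower in SAR131675, and 1 was higher and 0 lower in LNR. Apoe, which carries lipid and binds TREM2, stood at 1587, 1816, 3861 and 3517 CPM and was highest in the Vsig4 cluster, as Trem2 was. Of 16 resident macrophage genes 1 was lower in SAR131675, the scavenger receptor Marco (-1.34, -2.55 to -0.21), and 0 of 15 were past the limit in LNR. The Lyve1 cluster had the highest level of 11 of these genes in each pair. The markers Lyve1, F13a1, Cbr2, Gas6, Pf4, Vsig4, Stab1 and Cd209f of this list also served to name the Lyve1 and Vsig4 clusters. That count is therefore in part built in. Lyve1 itself was highest in the Vsig4 cluster, at 2876 CPM in the diet pair and 2040 in the LNR pair, libraries pooled. Of 12 genes of arginine metabolism 9 had enough UMIs, and the arginine transporter Slc7a2 was lower in SAR131675 (-0.78, -1.28 to -0.29) and higher in LNR (1.07, 0.45 to 1.71). Ass1, which rebuilds arginine from citrulline, was also higher in LNR (0.75, 0.33 to 1.19), and Nos3, endothelial nitric oxide synthase, was lower (-0.71, -2.12 to 0.63). Within the C1q clusters 0 of 9 genes of this list were higher and 2 lower in SAR131675 (median 0.08), Arg2 (-0.98, -2.28 to 0.25) and Ass1 (-0.64, -1.19 to -0.10), and 2 of 7 were higher and 0 lower in LNR (median 0.40), Slc7a2 (0.77, 0.07 to 1.51) and Ass1 (0.67, -0.02 to 1.38). The shares of all genes there were 5.7% higher and 5.38% lower in SAR131675, and 5.16% and 4.15% in LNR. Of 15 resident genes tested in the C1q clusters, 0 were past the limit in either pair.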

How the data were processed

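Single-cell RNA was captured in 4 libraries of pooled mouse digits, and the authors deposited UMI counts per gene and barcode made with Cell Ranger. The labels list version 6.1.2 and GRCm39 for all libraries, while the headers of the diet pair name a later release. Whether intronic reads were counted is not given in the sources used here. Median depth per kept cell was 11316 UMIs in SAR131675, 10712 in control diet, 5725 in LNR and 5851 in sham.

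Barcodes were kept by the limits stated in the report, which are those of the study for the LNR pair. Each pair was normalised to 10000 UMIs per cell, and 2000 variable genes without the 10 members gave 30 components, 20 neighbours and Leiden clusters, with a repeat clustering of the immune clusters at resolution 0.7 (scanpy 1.11.5, igraph 0.11.9, scikit-learn 1.9.0, Python 3.11.15, numpy 2.4.6, pandas 2.3.3). Clusters were called "-like" from fixed markers, of which at least 3 had to be detected, and cluster names such as Lyve1, Vsig4, Ngp and Camp Ly6c2 were added after the leading genes were seen, the last in place of monocyte-like. Doublets were left in and no caller was run, and 2, 4, 0 and 1 myeloid cells had over 2% of UMIs from markers of another lineage. Cells with at least 4 of 8 osteoclast markers, or 3 of 5 melanocyte markers, were also counted apart.

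UMIs were summed per class and library. Levels are CPM with exact Poisson intervals, shares have Clopper-Pearson intervals, and log2 ratios have exact conditional intervals at 95% (scipy 1.17.1). The ratio was checked on data simulated with counting error alone. That check does not cover UMIs that sit in few cells or differences between libraries. With 1 library per condition no test was made. Ratios were read for genes with at least 20 UMIs over the pair, and the share of all such genes past 1.5-fold is the background. A count of 0 is bounded by its interval. The members, context lists and classes were chosen with earlier results of these data known. Besides the members, the genes named are the paralogs Retnlg and Chil4, the 3 genes of highest r for each member with at least 50 UMIs in each pair (among genes with 200), and up to 4 genes of each context list by UMIs. Further list genes are named where a count over all myeloid cells was 5 or fewer, and for the C1q clusters on the arginine list alone. Promoters came from RefSeq (GRCm38.p6) and no coordinate of the files was used with them. The alternatives were a finer resolution of 1.2, no upper limits on genes and UMIs, marker gates of 3 markers in place of clusters, thinning to 1500 UMIs, leaving out the 5 top cells, the 3 C1q clusters alone, 1 top cell in place of 5, and leaving out the myeloid cells over 2%. Leaving out the top cells of a class, or cells with osteoclast markers, was added after seeing the data. Figures were drawn with matplotlib 3.10.9.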

Additional observations from a re-analysis of the deposited data

How the results depend on the processing

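Of the 9 genes compared in SAR131675 and control diet, the number at least 1.5-fold lower went from 2 to 0 after each cell was thinned to 1500 UMIs, which left out 93, 80, 350 and 299 shallower myeloid cells of SAR131675, control diet, LNR and sham. Without the 5 top cells of each gene it went to 1 (Gpnmb, -0.94), while the number higher went from 1 to 2 (Arg1, 1.28, and Chil3, 0.68, which turned from -0.27). Thinned, Retnla was at -0.51 and Gpnmb at -0.48. In the 3 C1q clusters alone the number higher in LNR than in sham went from 2 to 0, and the log2 ratios of Arg1 (-0.52, 5 against 6 UMIs) and Gpnmb (-0.017, 33 against 28 UMIs) changed sign. This setting leaves out the monocyte-like cluster, with 363 and 108 Arg1 and 70 and 11 Gpnmb UMIs. In the classes past 1.5-fold, leaving out the 5 top cells of the class or the cells with osteoclast markers was chosen after seeing the data: in SAR131675 against control diet the Retnla ratio of the Lyz1 Ccr2 cluster turned to -0.31 without its top cells, and without the cells with osteoclast markers the Arg1 ratio turned to -0.82 in the 3 C1q clusters and to -4.45 (1 against 15 UMIs) in the Lyz1 Ccr2 cluster. With 1 top cell in place of 5, the number of genes with over 50% (Nos2, under 20 UMIs, not counted) of their myeloid UMIs in the top in any library went from 4 to 1. Finer clustering, marker gates and no upper limits on cells moved no other count by more than 1.5 times, but the gates moved 31 of 40 levels of the C1q clusters (here cells gated on macrophage markers) and 34 of 40 myeloid shares past their interval, with the mean of Retnla over libraries going from 460 to 265 CPM and that of Folr2 from 932 to 596. The class with the highest mean level, among classes that leave out unnamed clusters, also changed, for Arg1 and Gpnmb from monocyte-like to the C1q clusters or the cells gated as macrophages, under finer clustering and under gates, for Nos2 under finer clustering and for Chil3 under gates. Under finer clustering the C1q means were only 8.29 CPM for Arg1 and 13.9 for Gpnmb. The unnamed cluster led by Mmp12, Clec4n and Spp1, which took the monocyte-like UMIs of both genes, was not ranked. Of the single log2 ratios over myeloid cells, 26 of 58 in the diet pair and 22 of 58 in the LNR pair moved past their interval. No paired analysis was possible because each condition has 1 library. The pooling of mice, the batch and the condition cannot be told apart.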

Other observations

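Outside the myeloid classes, Arg1 was highest in a keratinocyte cluster of the diet pair led by Krt6a, Serpinb11 and Krt17, of which Krt6a and Krt17 are keratins of the nail bed and of activated epidermis. It stood there at 103 CPM in SAR131675 (588 UMIs, 557 cells) and 236 CPM in control diet (610 UMIs, 262 cells). A cornified cluster led by Lce1 genes, which build the outer envelope of skin cells, had 79.9 and 97.6 CPM.

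Nos2 in the diet pair was highest in a cluster without a name led by Cytl1, Col10a1 and Acan, genes of cartilage, with 47.4 CPM in SAR131675 (44 UMIs, 96 cells) and 80.2 CPM in control diet (72 UMIs, 92 cells). Gpnmb lay in a fibroblast cluster led by Myoc, C3 and Clec3b, with 164 and 202 CPM over 1654 and 1505 cells, and in the LNR pair in a fibroblast cluster led by Pi16, C3 and Myoc, with 189 and 151 CPM over 3000 and 2721 cells. A single endothelial-like cell of control diet held 85 Retnla UMIs. These clusters and cells were singled out after their values were seen.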
